A study of Mus musculus with 10 samples.

Results

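The genes described here encode the proteins of the cytoplasmic ribosome. They are all mouse genes whose symbol starts with Rpl or Rps followed by a digit and which had at least 1 array probe set annotated to that symbol alone, leaving out the Rps6k kinases, Rps19bp1 and pseudogene symbols. The rule found 66 of the 23152 genes measured, 40 of the large subunit (Rpl) and 26 of the small subunit (Rps). Of these, 59 are core ribosomal proteins and 7 are paralogs named after another member: Rpl3l, Rpl7l1, Rpl10l, Rpl22l1, Rpl39l, Rps27l and Rps4y2.

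The study divided lymphoid-primed multipotent progenitors (LMPPs) by CD127, the interleukin-7 receptor alpha chain, and compared them with common lymphoid progenitors (CLPs). All cells were sorted from the bone marrow of adult C57BL/6 mice with no treatment or transgene named, and total RNA was measured on Affymetrix exon-level arrays. The CD127- LMPPs (3 arrays) lacked lineage markers, were high for cKit, Sca-1 and Flt3 and negative for CD127. The CD127+ LMPPs (3 arrays) differed from them only in being positive for CD127. Both CLP groups lacked lineage markers, were low for cKit and Sca-1, high for Flt3 and positive for CD127, and were sorted as Ly6D- CLPs (2 arrays) or Ly6D+ CLPs (2 arrays). The labels do not say whether arrays of a group came from separate mice, and the p-values therefore reflect the spread among these arrays alone. They also do not say whether LMPP and CLP arrays were handled together, so a handling difference and the cell type cannot be told apart.

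Ribosomal proteins assemble with ribosomal RNA into a large subunit, which joins amino acids, and a small subunit, which reads the messenger RNA. Most are needed in equal numbers and in every cell, and their messenger RNAs are among the most abundant. Their transcripts typically begin with a run of pyrimidines, the terminal oligopyrimidine tract, through which nutrient and growth signals control translation. Blood formation is sensitive to their dose: reduced amounts of several of them cause inherited anaemias, and Rpl22 is needed for the development of T cells.

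Because the pyrimidine run typical of this family lies at the transcript start, 55 bases around the annotated start are shown. They are given for 5 members that were lower in CLPs and for Rpl3l, which was higher. The sequences are RefSeq promoter entries on GRCm38.p6, read 5′ to 3′ on the gene's strand, with 40 bases before the start and 15 from it. Capitals mark the longest run of C and T within 15 bases on either side of the start, or the first of them where several are equally long, as in Rps7.
Rps27 (chr3:90213634-90213688, minus strand): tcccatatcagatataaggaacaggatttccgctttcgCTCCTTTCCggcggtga
Rpl34 (chr3:130730323-130730377, minus strand): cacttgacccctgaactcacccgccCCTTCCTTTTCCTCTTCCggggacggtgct
Rpl31 (chr1:39367811-39367865, plus strand): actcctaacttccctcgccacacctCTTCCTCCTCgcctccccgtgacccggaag
Rps7 (chr12:28635939-28635993, minus strand): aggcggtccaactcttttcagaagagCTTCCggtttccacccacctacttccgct
Rps27l (chr9:66946046-66946100, plus strand): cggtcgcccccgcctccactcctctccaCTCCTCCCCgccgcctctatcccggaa
Rpl3l (chr17:24727786-24727840, plus strand): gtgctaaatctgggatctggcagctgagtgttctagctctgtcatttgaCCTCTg
Runs were cut at 15 bases before the start, so the C and T directly before the capitals in Rpl34 and Rpl31 were not counted. So cut, the run was 18 bases in Rpl34, 10 in Rpl31, 9 in Rps27 and Rps27l, and 5 in Rps7 and Rpl3l. It spanned the annotated start in Rps27 and Rpl34, ended before it in Rpl31, Rps7 and Rps27l, and began after it in Rpl3l.

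Across the family, 52 of the 66 members had an entry in that table. A run of 8 or more pyrimidines within 15 bases of the start was present in 24 of the 52 members (46.2%), against 3760 of all 27025 genes in the table (13.9%). The letters CTTTC or CTTCC, on the gene's strand in the same window, were found in 20 members (38.5%) and in 3259 of all genes (12.1%). On the opposite strand the same letters were found in 17.3% of members and 12.2% of all genes. Of the matched members called lower in CLPs against CD127- LMPPs, 8 of 14 held such a run, and of those that did not pass that test, 15 of 36 did. The 69 mitochondrial ribosomal protein genes with an entry held one in 9 cases (13%). These are matches of letters, not measured start sites.

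The ribosomal protein genes were bright on these arrays. Averaged over the 10 arrays, the median member had a log2 signal of 7.75, and the median of all genes was 4.56. A mean of 8 or more was reached by 28 of 66 members (42.4%) and by 6.44% of all genes. Brightness also depends on each probe, so it does not rank the genes' transcript levels. The brightest were Rpl28 at 12.35, Rps12 at 11.74 and Rpl4 at 11.67, all core proteins, and the dimmest were Rps15 at 4.24, Rpl10l at 3.55 and Rpl22l1 at 3.12. Rpl10l, a testis paralog of Rpl10, and Rpl22l1, the paralog of Rpl22, stayed below 4.43 in every group, the 95th percentile of 1423 sensory receptor genes that blood progenitors should not use.

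Probe sets were few for this family. The 66 genes had 272 probe sets, with a median of 3 per gene against 8 for all genes. A single probe set carried 13 members, 12 had 2 and 41 had 3 or more, up to 13 for Rps9. A further 8 symbols of the family (Rpl12, Rpl23, Rpl24, Rpl35a, Rpl36, Rpl36a, Rpl36al and Rps21) had only probe sets that also name other genes, and are not members. Ribosomal protein genes have many near-identical processed pseudogenes, so a probe set annotated to 1 symbol can still pick up a copy. How far that entered these values was not tested.

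The spread within groups was small. The pooled standard deviation within groups had a median of 0.17 over the members, from 0.02 (Rps12) to 0.79 (Rps16), and 0.21 over all genes. Arrays of the same group correlated over the members' signals with r from 0.9807 to 0.9944, as a description. Of the genes used for the sort, Il7r, which encodes CD127, had a mean log2 signal of 4.32 in CD127- LMPPs, 9.10 in CD127+ LMPPs, 9.31 in Ly6D- CLPs and 9.64 in Ly6D+ CLPs. Kit, which encodes cKit, had means of 8.70, 8.33, 7.62 and 7.05 in the same order and was lower in CLPs than in either LMPP group (limma adjusted p = 0.00146 and 5.63e-05). Ly6a, which encodes Sca-1 and has 2 probe sets, had 5.82, 7.02, 5.51 and 6.30. CLPs, sorted as low for Sca-1, differed in it by -1.12 from CD127+ LMPPs (adjusted p = 0.0613) and by 0.09 from CD127- LMPPs (adjusted p = 0.896), so this transcript did not follow the sort in the latter. Flt3 had 9.82, 10.17, 10.25 and 10.08, with no call in any comparison. Ly6d had 4.76, 8.67, 5.88 and 11.33, so that the CD127+ LMPPs, which were not sorted on Ly6D, lay above the Ly6D- CLPs.

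As a family, the members were lower in CLPs than in LMPPs. The median log2 signal of the 66 members was 8.05 to 8.09 on the 3 CD127- LMPP arrays and 7.89 to 7.95 on the 3 CD127+ LMPP arrays. It was 7.60 and 7.65 on the Ly6D- CLP arrays and 7.33 and 7.44 on the Ly6D+ CLP arrays. The mean of the members was 8.02 to 8.10 on CD127- LMPP arrays, 8.01 to 8.03 on CD127+ LMPP arrays and 7.73 to 7.74 on the 4 CLP arrays. The steps of the median within LMPPs and within CLPs were thus not seen in the mean. By both measures the order of CLPs and LMPPs was the same. All 4 CLP arrays lay below all 6 LMPP arrays, while the median of all genes stayed between 4.53 and 4.64 on the 10 arrays. These are bulk samples, so fewer cells with a given transcript and less of it in each cell cannot be told apart.

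**Figure D1:**
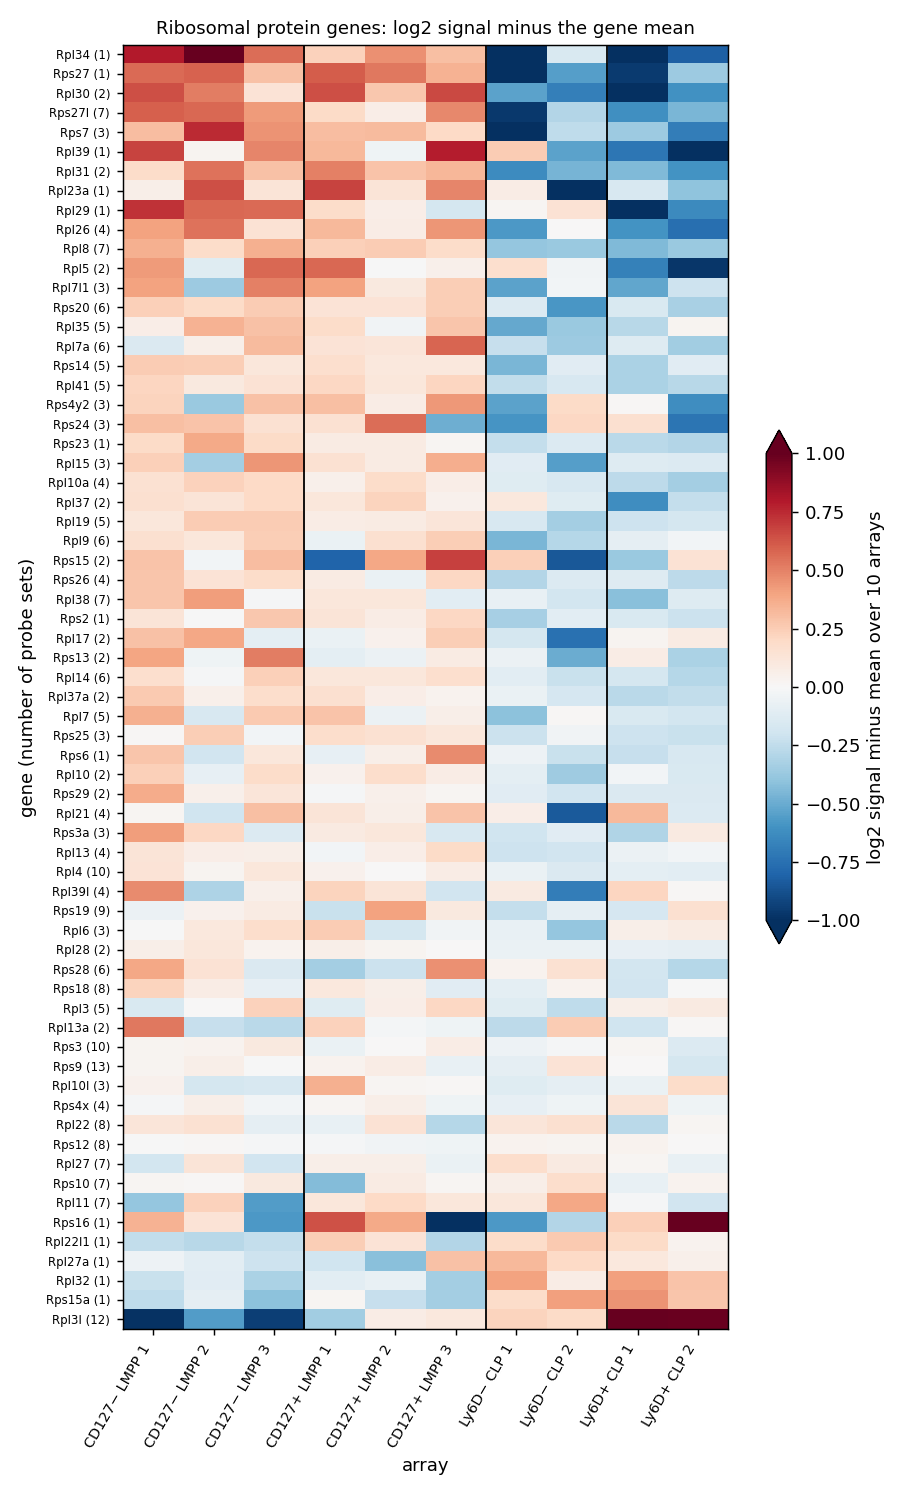
Log2 signal of each of the 66 ribosomal protein genes on each of the 10 arrays, minus that gene's mean over the arrays (red higher, blue lower, colours end at 1 on either side). Genes are ordered by the sum of the differences of CLPs from both LMPP groups, with the number of probe sets in brackets. Most genes are red on the 6 LMPP arrays and blue on the 4 CLP arrays, and Rpl3l, Rps15a and Rpl32 at the bottom run the other way.

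The first comparison asked whether the family differed between LMPPs with and without CD127. No member passed an adjusted p of 0.05 in limma with Benjamini-Hochberg adjustment over all 23152 genes, where 1.47% of all genes did, 0.881% as higher and 0.592% as lower. At an unadjusted p under 0.05 there were 2 members (3.03%), 1 higher and 1 lower, against 11.1% of all genes. The median difference of the members, CD127+ minus CD127-, was -0.039 on the log2 scale and that of all genes -0.005. The standard errors of the members' differences had a median of 0.15.

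Rpl3l, the form of Rpl3 known from heart and skeletal muscle, had the largest difference between the LMPP groups. Its log2 signals were 4.74, 5.17 and 4.78 in CD127- LMPPs and 5.38, 5.80 and 5.83 in CD127+ LMPPs. Every CD127+ array lay above every CD127- array. The difference was 0.77 ± 0.17 (SE), with an adjusted p of 0.0572 in limma. It passed without CD127- array 2 (adjusted p = 0.0448) or without CD127+ array 1 (adjusted p = 0.0489). Rpl29, a large-subunit protein, went the other way, with 8.41, 8.26 and 8.25 in CD127- LMPPs and 7.87, 7.75 and 7.51 in CD127+ LMPPs. These arrays did not overlap either, and the difference of -0.60 ± 0.20 had a limma adjusted p of 0.252 (1 probe set). Rpl34, at -0.46, and Rps13, at -0.31, followed on the lower side, and Rpl11, at 0.38, and Rpl22l1, at 0.28, on the higher side, each with an adjusted p of 0.52 or more. Without 1 array at a time Rps13 ranged from -0.48 to -0.20, Rpl11 from 0.22 to 0.61 and Rpl22l1 from 0.17 to 0.44.

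CLPs, taken as the equal mean of both CLP groups, were then compared with CD127+ LMPPs, the LMPPs that share CD127 with them. Lower signals were found for 9 members (13.6%), where 3.94% of all genes were called lower, and a higher signal for 1 member (1.52%), where 2.23% of all genes were called higher. In all 10 members passed, where 6.18% of all genes did. The 9 were Rpl30, Rps27, Rpl34, Rpl31, Rps7, Rps27l, Rpl26, Rpl8 and Rpl41, and the 1 was Rpl3l. The difference was negative for 56 of 66 members, with a median of -0.280 against -0.001 for all genes. All CLP arrays lay below all CD127+ LMPP arrays in 27 members (40.9%, against 10.3% of all genes) and above them in 4 (6.06%, against 8.81%). The members and lists were chosen with earlier results of these data known, so the counts are a description.

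CLPs were also compared with CD127- LMPPs. Here 19 members (28.8%) were lower, where 8.36% of all genes were, and 3 (4.55%) were higher, where 5.08% of all genes were, so that 22 passed where 13.4% of all genes did. The difference was negative for 55 of 66 members, with a median of -0.332 against 0.016 for all genes. The CLP arrays all lay below the CD127- LMPP arrays in 29 members, against 13.5% of all genes, and above them in 5, against 10.2%. Both comparisons use the same 4 CLP arrays and are therefore not independent. Set against all 6 LMPP arrays together, the CLP arrays were all lower in 22 members, against 6.96% of all genes, and all higher in 3, against 4.82%.

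**Figure D2:**
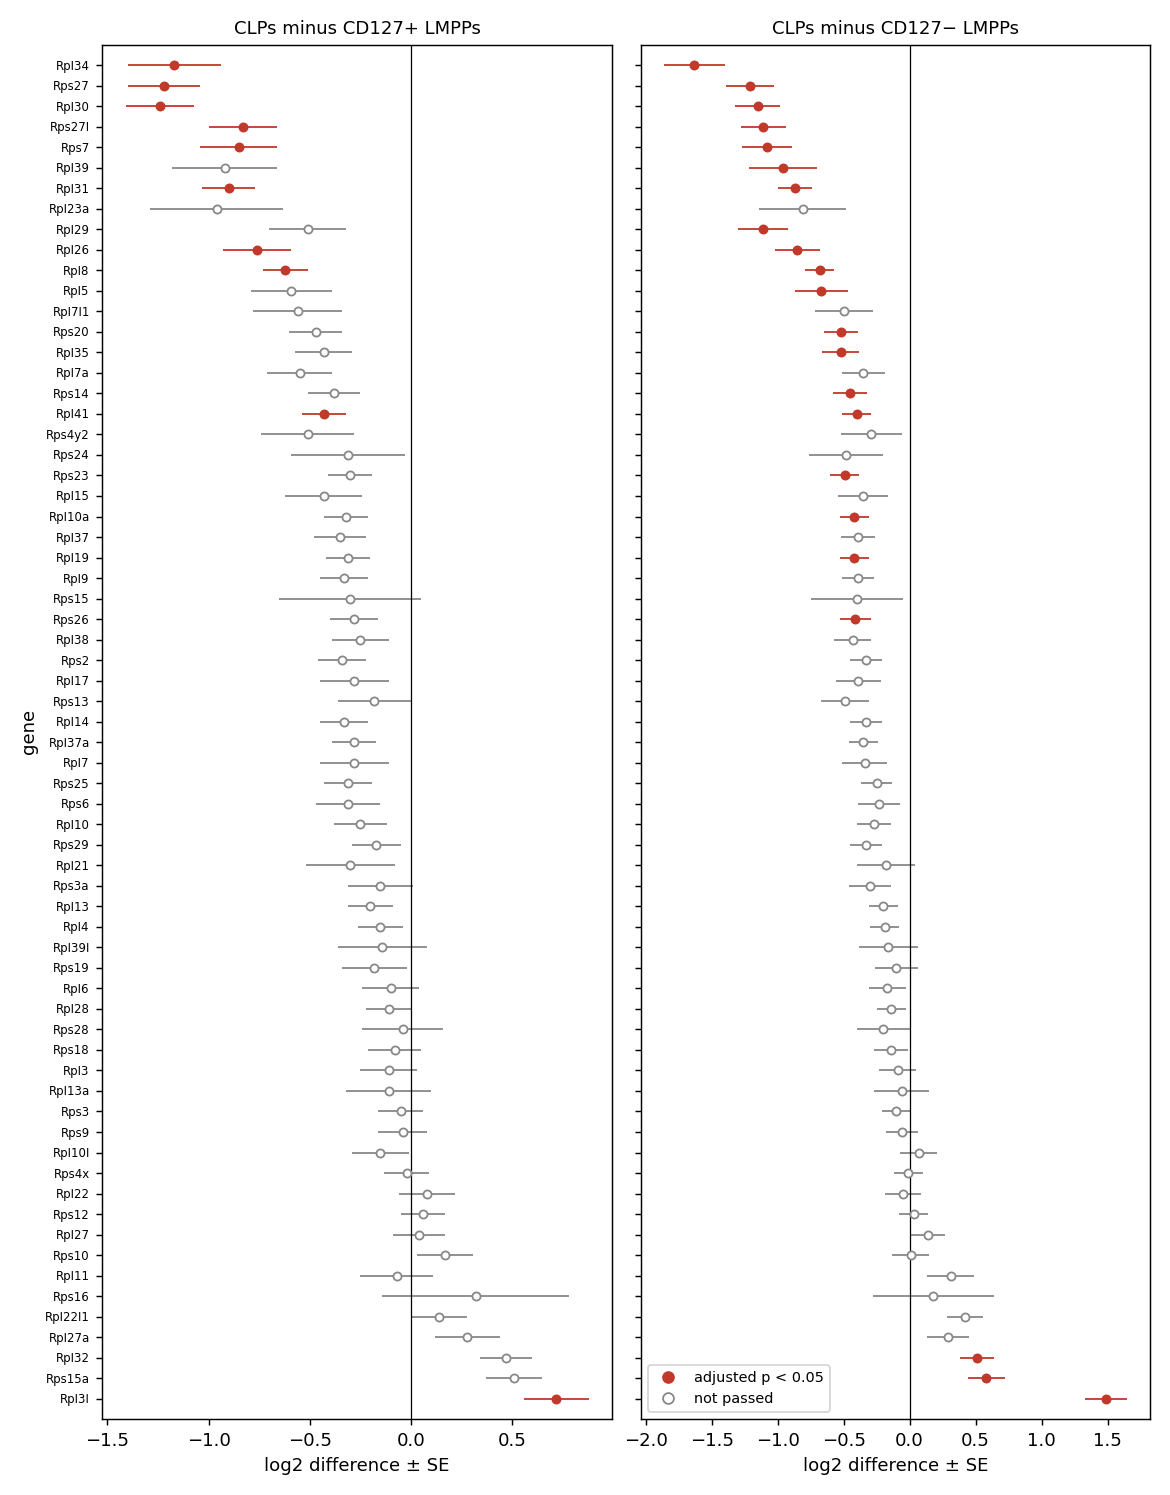
Log2 difference of each of the 66 genes, CLPs minus CD127+ LMPPs (left) and CLPs minus CD127- LMPPs (right), with bars for the standard error from limma and filled red points for an adjusted p under 0.05. Most points lie left of 0; 9 red points lie left and 1 right in the left panel, and 19 left and 3 right in the right panel.

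Among the core proteins of the large subunit, 6 of 35 (17.1%) were lower in CLPs than in CD127+ LMPPs, where 3.94% of all genes were, and 12 of 35 (34.3%) lower than in CD127- LMPPs, where 8.36% of all genes were. In both comparisons Rpl30, an RNA-binding protein of the large subunit, had a fall of over 2-fold. Its log2 signals were 7.93, 7.79 and 7.42 in CD127- LMPPs and 7.93, 7.55 and 7.94 in CD127+ LMPPs. They were 6.75 and 6.60 in Ly6D- CLPs and 6.23 and 6.68 in Ly6D+ CLPs, so that every CLP array was below every LMPP array. The gene was 2.37-fold lower in CLPs than in CD127+ LMPPs (log2 difference -1.24 ± 0.17, limma adjusted p = 0.00323), and it passed without each of the 7 arrays in turn. Its 2 probe sets differed in size, with -2.12 for one of mean signal 5.23 and -0.37 for one of mean signal 9.33. The brighter probe set alone did not pass (adjusted p = 0.248).

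Rpl31, which sits near the exit of the tunnel through which the new protein leaves, had matching probe sets. Its log2 signals were 7.81, 8.17 and 7.92 in CD127- LMPPs, 8.13, 7.91 and 7.96 in CD127+ LMPPs, 7.0 and 7.16 in Ly6D- CLPs, and 7.19 and 7.03 in Ly6D+ CLPs. The LMPP and CLP arrays were separated by more than the range within either. It fell by 0.90 ± 0.13 against CD127+ LMPPs (adjusted p = 0.00405) and by 0.87 ± 0.13 against CD127- LMPPs (adjusted p = 0.00162) in limma. Its 2 probe sets differed by -0.92 and -0.89 against CD127+ LMPPs, and both calls held in each alternative that tested Rpl31 as a gene, including each array left out. Its probe sets tested singly did not pass.

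Rpl8, a protein close to the centre where peptide bonds form, was the brightest of the members that kept their call without each array. It had 11.20, 11.03 and 11.20 in CD127- LMPPs and 11.09, 11.10 and 11.03 in CD127+ LMPPs. The CLP arrays had 10.46 and 10.48 (Ly6D-) and 10.41 and 10.48 (Ly6D+), a narrow band below all LMPP arrays. The fall was 0.62 ± 0.11 against CD127+ LMPPs (1.53-fold, limma adjusted p = 0.0106) and 0.68 ± 0.11 against CD127- LMPPs (adjusted p = 0.00249). All 7 probe sets were lower against CD127+ LMPPs, from -1.10 to -0.17. The brightest of them, at -0.17, did not pass alone (adjusted p = 0.554), nor did the median of the 7 (adjusted p = 0.158).

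Rpl34, another large-subunit protein, was measured by 1 probe set. Its signals were 7.83, 8.06 and 7.60 in CD127- LMPPs, 7.27, 7.5 and 7.34 in CD127+ LMPPs, 5.75 and 6.89 in Ly6D- CLPs and 5.94 and 6.22 in Ly6D+ CLPs. The Ly6D- CLP arrays were far apart, and both still lay below all LMPP arrays. The fall was 3.09-fold against CD127- LMPPs (log2 difference -1.63 ± 0.23, limma adjusted p = 0.0012), the largest of any member in that comparison, and it held without each array. Against CD127+ LMPPs it was 1.17 ± 0.23 (adjusted p = 0.0168), and that call was lost without CD127+ array 1, 2 or 3 or Ly6D+ array 1 (adjusted p from 0.0514 to 0.0718).

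Rpl26, known for binding the messenger RNA of p53, had 6.37, 6.51 and 6.11 in CD127- LMPPs, 6.29, 6.04 and 6.41 in CD127+ LMPPs, 5.39 and 5.97 in Ly6D- CLPs and 5.37 and 5.21 in Ly6D+ CLPs. No CLP array reached an LMPP array. It fell by 0.76 ± 0.17 against CD127+ LMPPs (limma adjusted p = 0.0263), a call lost without CD127+ array 1 or 3, Ly6D- array 1 or either Ly6D+ array (adjusted p from 0.0584 to 0.102). Against CD127- LMPPs the fall was 0.85 ± 0.17 (adjusted p = 0.00784) and held without each array. Rpl41, a very short and basic peptide of the ribosome, fell by 0.43 ± 0.11 (adjusted p = 0.0457) and by 0.40 ± 0.11 (adjusted p = 0.034) in the same order. Both calls were lost whichever of the 7 arrays was left out, with adjusted p from 0.0695 to 0.133 and from 0.0509 to 0.124. The differences themselves then ranged from -0.46 to -0.41 and from -0.43 to -0.37.

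Rpl29, Rpl39 and Rpl5 were lower than in CD127- LMPPs, and their CLP groups lay apart. Rpl29 had 7.70 and 7.83 in Ly6D- CLPs and 6.21 and 7.05 in Ly6D+ CLPs, against 8.41, 8.26 and 8.25 in CD127- LMPPs. The fall was 1.11 ± 0.19 (limma adjusted p = 0.003) and held without each array, while Ly6D- CLPs alone differed by -0.54 (adjusted p = 0.182). Rpl39, at the tunnel exit, fell by 0.96 ± 0.26 (adjusted p = 0.0304) and lost the call without CD127- array 1 or 3, Ly6D- array 2 or Ly6D+ array 2 (adjusted p from 0.0805 to 0.124). Rpl5, which carries the 5S ribosomal RNA and can bind Mdm2, fell by 0.67 ± 0.20 (adjusted p = 0.0491), and only leaving out CD127- array 2 kept that call (adjusted p otherwise 0.0677 to 0.166). With only its brighter probe set, Rpl5 differed by -0.26 (adjusted p = 0.533).

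Rpl35, near the tunnel exit, and the large-subunit genes Rpl19 and Rpl10a fell by 0.52, 0.42 and 0.42 on the log2 scale against CD127- LMPPs, with limma adjusted p of 0.0296, 0.0307 and 0.0298. Rpl23a, on 1 probe set, differed by -0.96 ± 0.33 and -0.81 ± 0.33 in the 2 comparisons and did not pass (adjusted p = 0.118 and 0.143), with its Ly6D- CLP arrays at 6.0 and 4.29. The calls of the other 3 depended on single arrays. That of Rpl35 was lost without CD127- array 2 or 3, Ly6D- array 1 or Ly6D+ array 1 (adjusted p from 0.0736 to 0.102). That of Rpl19 was lost without any array but Ly6D- array 1 (from 0.0616 to 0.0934), and that of Rpl10a without any of the 7 (from 0.0529 to 0.0889). Without 1 array the difference ranged from -0.47 to -0.38 for Rpl19 and from -0.44 to -0.4 for Rpl10a.

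Rpl32 was the core large-subunit gene called higher in CLPs. Its single probe set had 10.57, 10.68 and 10.48 in CD127- LMPPs, 10.69, 10.72 and 10.46 in CD127+ LMPPs, 11.20 and 10.87 in Ly6D- CLPs and 11.21 and 11.08 in Ly6D+ CLPs. All CLP arrays lay above all LMPP arrays. It rose by 0.51 ± 0.13 against CD127- LMPPs (limma adjusted p = 0.0282), a call lost without CD127- array 1, 2 or 3, Ly6D- array 1 or either Ly6D+ array (adjusted p from 0.0504 to 0.0939). Against CD127+ LMPPs the difference was 0.47 ± 0.13 (adjusted p = 0.0662).

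**Figure D3:**
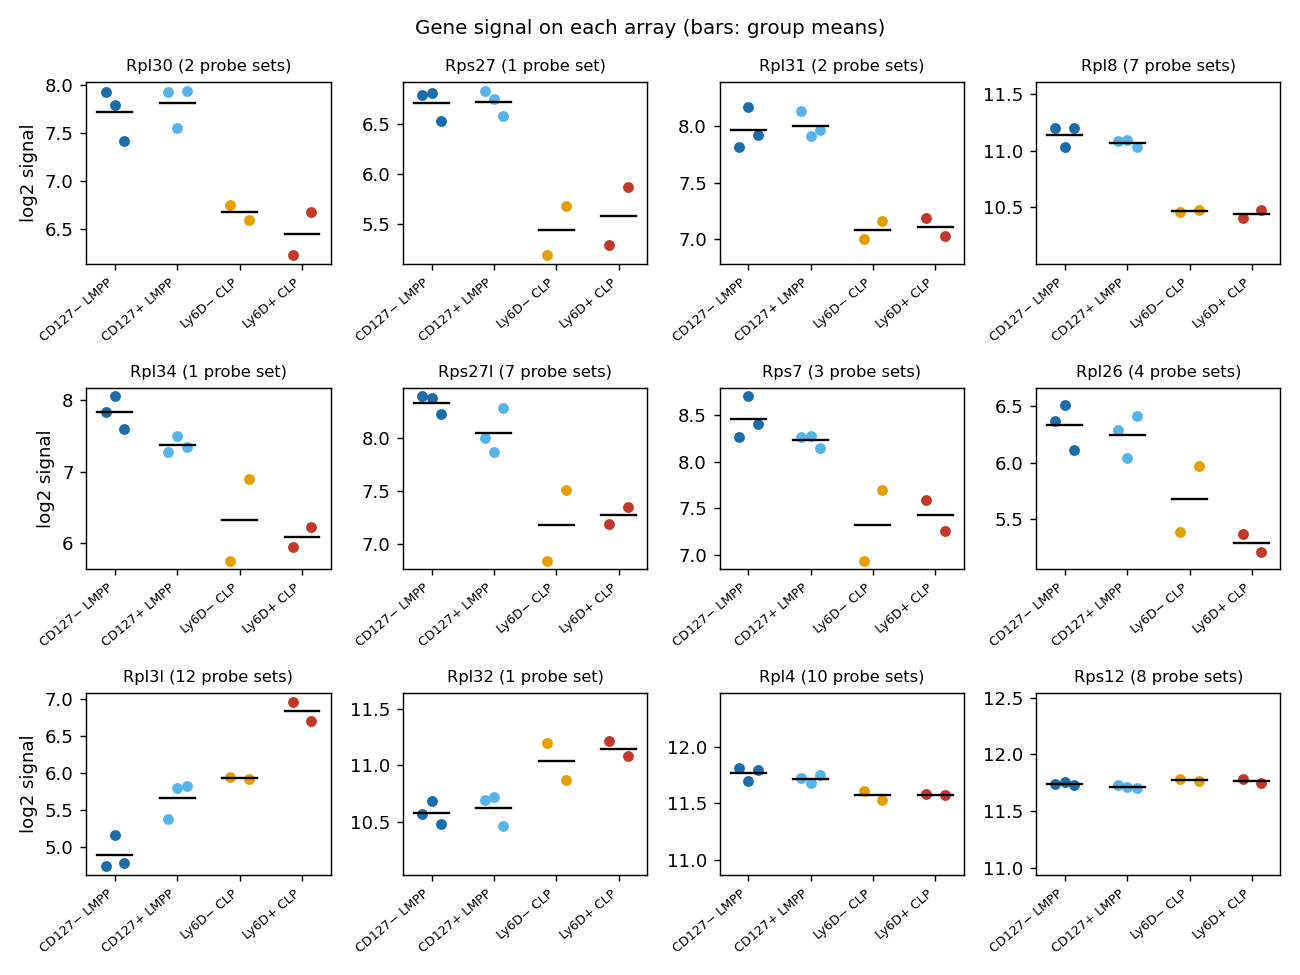
Log2 signal of 12 ribosomal protein genes on each array (points) with group means (bars); each panel has its own vertical scale spanning at least 1.6 log2 units. Rpl30, Rps27, Rpl31, Rpl8, Rpl34, Rps27l, Rps7 and Rpl26 are lower on all 4 CLP arrays, Rpl3l and Rpl32 higher, and the bright genes Rpl4 and Rps12 stay within a narrow range.

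In the small subunit, 2 of 24 core proteins (8.33%) were lower in CLPs than in CD127+ LMPPs, against 3.94% of all genes, and 6 of 24 (25%) lower than in CD127- LMPPs, against 8.36%. Rps27, a zinc-finger protein of the small subunit, had 6.80, 6.82 and 6.53 in CD127- LMPPs, 6.84, 6.76 and 6.58 in CD127+ LMPPs, 5.18 and 5.68 in Ly6D- CLPs and 5.28 and 5.87 in Ly6D+ CLPs. The highest CLP array stayed under the lowest LMPP array. It was 2.34-fold lower than in CD127+ LMPPs (log2 difference -1.22 ± 0.18, limma adjusted p = 0.00405) and 2.32-fold lower than in CD127- LMPPs (-1.21 ± 0.18, adjusted p = 0.0014). It has 1 probe set, and both calls held in each alternative that tested it as a gene. Tested singly among all probe sets, that probe set did not pass in either comparison.

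Rps7, a small-subunit protein that can also bind Mdm2, had 8.26, 8.70 and 8.40 in CD127- LMPPs and 8.26, 8.27 and 8.15 in CD127+ LMPPs. In CLPs it had 6.94 and 7.70 (Ly6D-) and 7.59 and 7.26 (Ly6D+), all below the LMPPs. The fall was 1.08 ± 0.19 against CD127- LMPPs (2.12-fold, limma adjusted p = 0.0036) and held without each array. Against CD127+ LMPPs it was 0.85 ± 0.19 (adjusted p = 0.0256) and was lost without CD127+ array 1, 2 or 3 or Ly6D+ array 2 (adjusted p from 0.0719 to 0.0898). Against CD127+ LMPPs its 3 probe sets lay between -1.12 and -0.39, the first of these for the brightest.

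Smaller falls against CD127- LMPPs were called for Rps20, Rps23, Rps14 and Rps26, by 0.52, 0.49, 0.45 and 0.41, with limma adjusted p of 0.0251, 0.0171, 0.0389 and 0.0497. Rps14, whose loss contributes to the anaemia of a myelodysplastic syndrome, had 5 probe sets of which 2 were negative, from -2.03 to 0.24. Its brightest probe set alone differed by 0.23 (adjusted p = 0.657), in the other direction. The call for Rps23 was lost without CD127- array 2 or Ly6D+ array 2 (adjusted p 0.0514 to 0.0693), and that for Rps20 without any array but Ly6D- array 1 and Ly6D+ array 1 (0.0603 to 0.0808). The call for Rps14 was lost without any array but Ly6D- array 2 (0.0557 to 0.127), and that for Rps26 without any of the 7 (0.058 to 0.164). Without 1 array the difference ranged from -0.54 to -0.37 for Rps14 and from -0.45 to -0.37 for Rps26.

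Rps15a, a small-subunit protein with 1 probe set, was called higher. It had 7.44, 7.60 and 7.28 in CD127- LMPPs, 7.71, 7.46 and 7.35 in CD127+ LMPPs, 7.88 and 8.10 in Ly6D- CLPs and 8.14 and 7.97 in Ly6D+ CLPs, with no overlap between CLPs and LMPPs. The rise was 0.58 ± 0.14 against CD127- LMPPs (limma adjusted p = 0.0199), lost without CD127- array 1 or 3, Ly6D- array 2 or Ly6D+ array 1 (adjusted p from 0.0514 to 0.0776). When probe sets that name several genes were included, the difference turned to -0.37 (adjusted p = 0.0676). The direction of Rps15a therefore depends on which probe sets are taken.

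The 2 paralogs that changed went in opposite directions. Rps27l, a p53-responsive paralog of Rps27, had 8.40, 8.38 and 8.23 in CD127- LMPPs, 8.0, 7.87 and 8.29 in CD127+ LMPPs, 6.84 and 7.51 in Ly6D- CLPs and 7.19 and 7.35 in Ly6D+ CLPs. All CLP arrays lay below all LMPP arrays. The fall was 1.11 ± 0.17 against CD127- LMPPs (2.17-fold, limma adjusted p = 0.00183), which held without each array. Against CD127+ LMPPs it was 0.83 ± 0.17 (adjusted p = 0.0194), lost without CD127+ array 1 or 3 or Ly6D+ array 1 (adjusted p from 0.059 to 0.0824). All 7 of its probe sets were lower in CLPs, from -1.90 to -0.54 against CD127- LMPPs. Rps27 and Rps27l were thus both lower.

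Rpl3l was the member with the largest rise. It had 5.95 and 5.92 in Ly6D- CLPs and 6.97 and 6.71 in Ly6D+ CLPs, above the 5.38 to 5.83 of CD127+ LMPPs and the 4.74 to 5.17 of CD127- LMPPs. The 4 group means, in the order CD127- LMPPs, CD127+ LMPPs, Ly6D- CLPs and Ly6D+ CLPs, were 4.90, 5.67, 5.93 and 6.84. CLPs were 2.81-fold above CD127- LMPPs (log2 difference 1.49 ± 0.16, limma adjusted p = 0.000225), and this held without each array. Against CD127+ LMPPs the rise was 0.72 ± 0.16 (adjusted p = 0.0268), lost without any array but Ly6D+ array 2 (adjusted p from 0.0505 to 0.101), and Ly6D- CLPs alone differed by 0.26 (adjusted p = 0.512). Rpl3 itself, the general form of the protein, differed by -0.11 ± 0.14 and -0.09 ± 0.14 in these comparisons.

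The probe sets of Rpl3l were uneven. All 12 were higher in CLPs than in CD127- LMPPs, by 0.26 to 2.95. The 3 brightest, with mean signals of 8.34, 8.08 and 7.81, differed by 2.39, 1.52 and 2.12, of which the first and the last passed singly in limma (adjusted p = 0.00721 and 0.0104). The next in brightness, at 6.79, differed by 0.26. Between the LMPP groups the same 3 differed by 1.86, 1.14 and 1.79, and Rpl3l passed there with its brightest probe set alone (adjusted p = 0.0127).

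The other paralogs did not pass in either comparison. Rpl7l1 differed by -0.56 and -0.50 against CD127+ and CD127- LMPPs and Rpl7 by -0.28 and -0.34. Rps4y2 differed by -0.51 and -0.29 and Rps4x by -0.02 and -0.01. Rpl39l differed by -0.14 and -0.16 where Rpl39 had -0.92 and -0.96, the first with a limma adjusted p of 0.0589. Rpl10l and Rpl22l1, both at background signal, differed by -0.15 and 0.07 and by 0.14 and 0.42, beside Rpl10 at -0.25 and -0.27 and Rpl22 at 0.08 and -0.05.

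Members known for roles in blood or in growth control were followed by name. Rpl22, on 8 probe sets, had group means within its array spread, and its differences of 0.08 ± 0.14 and -0.05 ± 0.14 had limma adjusted p of 0.797 and 0.857. Rpl11, the partner of Rpl5, differed by -0.07 ± 0.18 and 0.31 ± 0.18 (adjusted p = 0.879 and 0.307), unlike Rpl5 in sign against CD127- LMPPs. Rps6, the substrate of the S6 kinases, differed by -0.31 ± 0.16 and -0.23 ± 0.16 (adjusted p = 0.312 and 0.418). Rps19, the gene most often mutated in Diamond-Blackfan anaemia, differed by -0.18 ± 0.16 and -0.10 ± 0.16 (adjusted p = 0.592 and 0.736).

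The brightest members moved little. Rps12 had 11.73 to 11.76 in CD127- LMPPs, 11.70 to 11.73 in CD127+ LMPPs and 11.75 to 11.78 in the 4 CLP arrays. Rpl4 had 11.70 to 11.81, 11.68 to 11.75 and 11.53 to 11.61 in the same order, and Rpl28 had 12.39 to 12.47, 12.36 to 12.41 and 12.26 to 12.29. The CLP arrays of Rpl4 and Rpl28 lay below all LMPP arrays, by differences of -0.15 and -0.11 from CD127+ LMPPs that did not pass. Among the 28 members with a mean of 8 or more, the median difference was -0.249 against CD127+ LMPPs and -0.258 against CD127- LMPPs. The 1491 genes of that brightness had medians of 0.023 and -0.053, and 12.5% and 20.7% of them were called lower, against 2 (7.14%) and 5 (17.9%) of the 28 members. With genes of lower mean left out before the fit, 13 and 16 of the 28 members were lower, against 25.8% and 35.1% of the 1491 genes, so the order of members and other bright genes turned with the fit.

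At the level of single probe sets the direction was common and the calls few. Of 272 probe sets, 69.5% were lower in CLPs than in CD127+ LMPPs and 70.2% lower than in CD127- LMPPs, with medians of -0.19 and -0.22. In the 82 with a mean of 11 or more the shares were 75.6% and 76.8%, with medians of -0.14 and -0.13. Tested singly over all 269751 probe sets in limma, none passed against CD127+ LMPPs, where 0.0145% of all probe sets were called lower and 0.00259% higher, and, without adjustment, 48 were lower and 7 higher at p under 0.05. Against CD127- LMPPs, 10 passed as lower, where 0.788% of all did, and 2 as higher (both of Rpl3l), where 0.801% did. None passed between the LMPP groups, where 0.0337% of all were higher and 0.00519% lower, or between the CLP groups, where 0.00259% were higher and 0% lower. At an unadjusted p under 0.05 there were 5 higher and 2 lower between the LMPP groups and 7 higher and 5 lower between the CLP groups. By number of probe sets, 4 of 25 genes with 1 or 2 and 5 of 41 genes with 3 or more were lower than in CD127+ LMPPs, where 3.94% of all genes were. Against CD127- LMPPs these were 8 of 25 and 11 of 41, where 8.36% of all genes were.

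**Figure D4:**
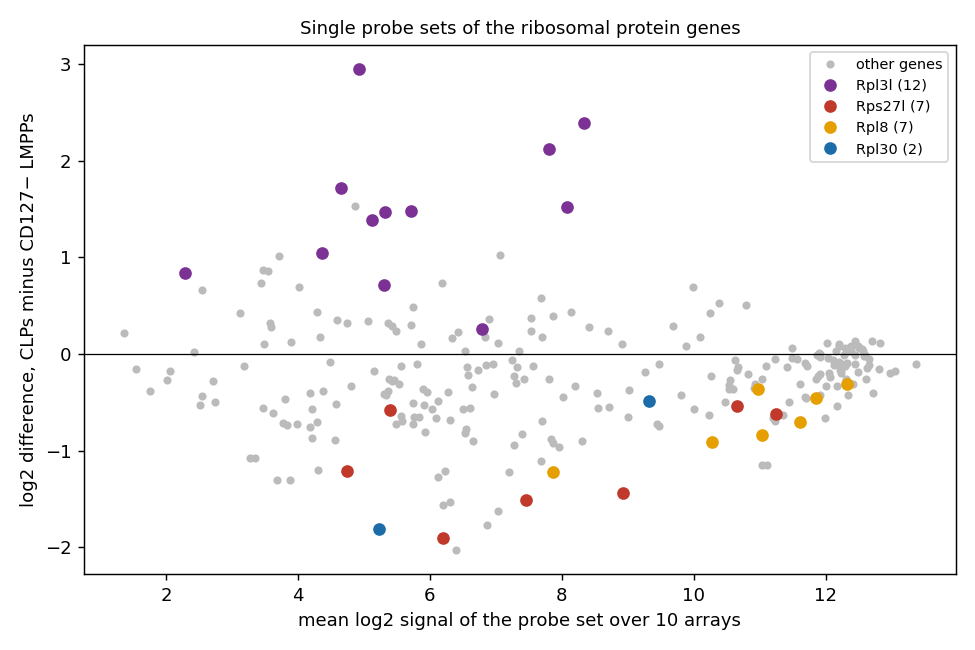
Each of the 272 probe sets of the ribosomal protein genes, by mean log2 signal over 10 arrays (horizontal) and log2 difference, CLPs minus CD127- LMPPs (vertical), with Rpl3l, Rps27l, Rpl8 and Rpl30 coloured and their number of probe sets in brackets. Differences are widest below a mean of about 8 and narrow above 11, and all 12 Rpl3l points lie above 0 while all Rps27l, Rpl8 and Rpl30 points lie below.

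The count against CD127+ LMPPs fell without most single arrays, as did the calls over all genes. Of the 10 calls, 4 (Rpl30, Rps27, Rpl31 and Rpl8) held without each of the 7 arrays and 6 did not. The count was 4, 6 and 4 without CD127+ array 1, 2 and 3, 5 without Ly6D+ array 1 and 8 to 10 without the others. Of all genes, 1.74%, 1.86% and 1.73% were lower without CD127+ array 1, 2 and 3. The share was 1.95% without Ly6D+ array 1 and 2.16% to 3.47% without the others, against 3.94% with all arrays. Against CD127- LMPPs, 10 of 22 calls held without each array: Rpl34, Rps27, Rpl30, Rps27l, Rpl29, Rps7, Rpl31, Rpl26, Rpl8 and Rpl3l. That count was 12, 16 and 12 without CD127- array 1, 2 and 3, 16 and 14 without Ly6D- array 1 and 2, and 13 and 12 without Ly6D+ array 1 and 2. Across these fits 4.68% to 7.88% of all genes were lower and 2.93% to 4.66% higher, against 8.36% and 5.08% with all arrays.

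Each CLP group was also set against the LMPPs by itself. Ly6D- CLPs were lower than CD127+ LMPPs in 4 members (Rpl30, Rps27, Rpl31 and Rpl8), where 1.42% of all genes were lower, and higher in 0, where 0.635% were, with 2 members higher at an unadjusted p under 0.05 in limma, and 2.06% of all genes passed. Ly6D+ CLPs were lower in 9 members, where 2.75% of all genes were, and higher in Rpl3l, where 1.28% were, with 4.03% of all genes past the threshold. Against CD127- LMPPs, Ly6D- CLPs were lower in 8 members (all genes, 4.17%) and higher in 1 (2.93%), with 7.1% of all genes past the threshold. Ly6D+ CLPs were lower in 14 (6.94%) and higher in 3 (3.93%), with 10.9% past it. Whether the 2 CLP groups differ is answered by comparing them directly.

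In that comparison, Ly6D+ minus Ly6D- CLPs, no member passed in limma, where 0.0993% of all genes did, 0.0389% as higher and 0.0605% as lower, and 6 members (9.09%) had an unadjusted p under 0.05, 2 higher and 4 lower, against 9.1% of all genes. The median difference was 0.010, against -0.003 for all genes. Rpl29 had the lowest adjusted p, 0.164, with a difference of -1.14 ± 0.25 from 7.70 and 7.83 to 6.21 and 7.05. Rpl5 (5.74 and 5.54 against 4.90 and 4.60) and Rpl39 (8.22 and 7.43 against 7.24 and 6.72) differed by -0.89 ± 0.26 and -0.85 ± 0.33, with adjusted p of 0.333 and 0.487. On the higher side Rps16 differed by 1.18 ± 0.60, Rpl3l by 0.91 ± 0.21 and Rpl17 by 0.51 ± 0.23, with adjusted p of 0.601, 0.193 and 0.534. Rps16 has 1 probe set and the widest spread within groups of all members (0.79). Its mean over the 10 arrays, 4.34, lay under 4.43, the 95th percentile of the sensory receptor genes. Without 1 array at a time Rps16 ranged from 0.68 to 1.67, Rpl17 from 0.23 to 0.79, Rpl39 from -1.24 to -0.45 and Rpl29 from -1.56 to -0.72. With 2 arrays a group the median standard error of a member's difference was 0.19, and even members with differences near 1 did not pass.

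Other genes of ribosome production were described by the same fit, where 3.94% of all genes were lower than in CD127+ LMPPs and 8.36% lower than in CD127- LMPPs. Of 5 measured cytoplasmic ribosomal proteins whose symbols fall outside the rule, Rplp0, part of the stalk of the large subunit, fell by 0.60 against CD127+ LMPPs (limma adjusted p = 0.0152) and by 0.59 against CD127- LMPPs (adjusted p = 0.00777). Rplp1, its partner in the stalk, fell by 0.52 against CD127- LMPPs (adjusted p = 0.0261), and 3 of the 5 did not pass there. Of 75 mitochondrial ribosomal protein genes, which serve the separate ribosome of mitochondria, 24 were lower than in CD127+ LMPPs and 45 lower than in CD127- LMPPs, with 0 higher in either, where 0 and 1 were higher at an unadjusted p under 0.05. Their median differences were -0.45 and -0.59. Mrpl52 fell by 1.5 and 1.34 and Mrpl36 by 1.29 and 1.59.

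Genes of translation beyond the ribosomal proteins, and of ribosome assembly, were fitted in the same way. None of 14 measured genes of translation and related functions known for terminal oligopyrimidine transcripts passed in limma, with 3 and 4 lower at an unadjusted p under 0.05 and medians of -0.08 and -0.12. Eef1d, an elongation factor subunit, differed by -0.41 (adjusted p = 0.0708) from CD127+ LMPPs, and Eef1g by -0.41 (adjusted p = 0.0541) from CD127- LMPPs. Of 37 ribosome biogenesis genes, 3 and 8 were lower, against 3.94% and 8.36% of all genes, and 0 higher, with 3 and 0 higher at an unadjusted p under 0.05. Nhp2, a protein of the particles that modify ribosomal RNA, fell by 0.79 and 1.12, Nop16 by 0.74 and 0.92 and Nop2 by 0.58 and 0.86. Ncl, the abundant nucleolar protein nucleolin, differed by 0.12 and 0.02.

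RNA polymerase I, which makes ribosomal RNA, had 1 and 4 of 14 genes lower, against 3.94% and 8.36% of all genes, led by its subunit gene Znrd1, which fell by 0.84 and 1.00. Among 18 genes that control ribosome production, 1 and 3 were lower, against the same shares. Eif4ebp1, an inhibitor of cap-dependent translation that mTOR switches off, fell by 1.11 (limma adjusted p = 0.00114) and 1.29 (adjusted p = 0.000105). Myc, a transcription factor that raises ribosome production, differed by 0.24 (adjusted p = 0.302) and 0.38 (adjusted p = 0.0732). In the LMPP and the Ly6D comparison none of the genes in these 6 lists passed, with at most 4 and 7 of the 75 mitochondrial ribosomal protein genes lower at an unadjusted p under 0.05.

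**Figure D5:**
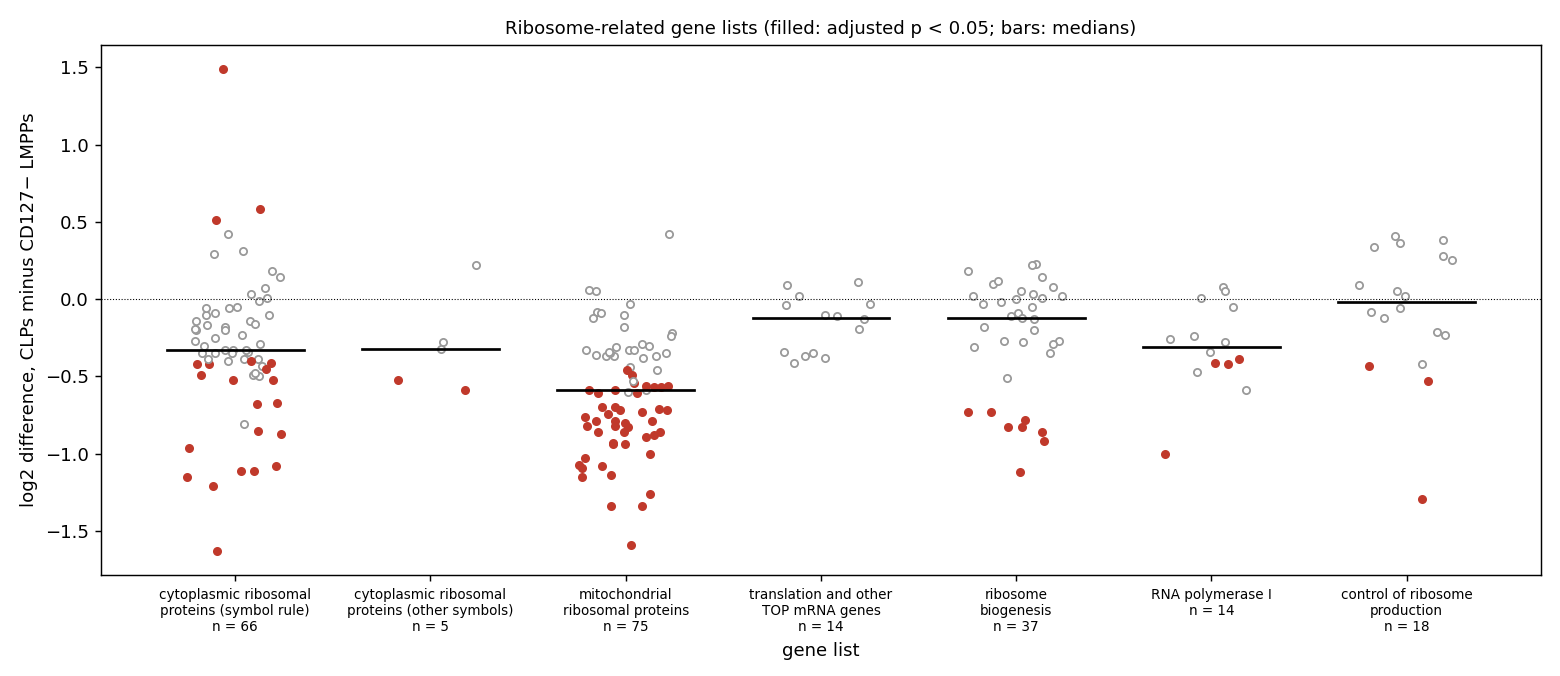
Log2 difference, CLPs minus CD127- LMPPs, of each gene in the cytoplasmic ribosomal protein family and in 6 related lists, with filled red points for an adjusted p under 0.05 in limma and bars for the medians. The medians are -0.332 for the 66 members and -0.59 for the 75 mitochondrial ribosomal protein genes, and lie at -0.12, -0.12, -0.31 and -0.02 in the 4 lists on the right.

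Marker lists of other cells differed between the groups, each in its own order. The mean log2 signal of 7 myeloid progenitor genes was 8.0 to 9.04 in CD127- LMPPs, 7.10 to 7.37 in CD127+ LMPPs, 6.14 to 6.38 in Ly6D- CLPs and 5.28 to 5.31 in Ly6D+ CLPs, and 5 and 7 of the 7 were lower in CLPs than in CD127+ and CD127- LMPPs. For 9 mature granulocyte genes it was 4.60 to 5.72, 6.71 to 7.52, 4.99 to 5.15 and 4.88 to 5.48 in the same order, and 7 and 1 were lower. For 7 erythroid genes it was 4.84 to 4.88, 5.57 to 6.33, 4.65 to 4.74 and 4.45 to 4.56, with 4 and 2 lower. For 9 B lineage genes it was 4.57 to 4.66, 5.74 to 6.01, 5.60 to 5.70 and 6.93 to 6.95, with 4 and 7 higher. Of all genes, 3.94% and 8.36% were lower and 2.23% and 5.08% higher in these 2 comparisons. Between the LMPP groups 6 granulocyte, 3 erythroid and 4 B lineage genes were higher in CD127+ LMPPs, where 0.881% of all genes were. In the same comparison 5 myeloid progenitor genes were lower, where 0.592% of all genes were. The part of these cells or programmes in the ribosomal protein differences was not tested.

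Few genes of the remaining lists passed. Of 6 T and NK lineage genes 5 were under the low-signal limit, as were 4 of 7 stromal and endothelial genes. In limma 1 T and NK lineage gene was higher in CLPs than in CD127- LMPPs, and 1 higher in CD127+ than in CD127- LMPPs. Among the stromal and endothelial genes 1 was higher in CLPs than in CD127+ LMPPs. None of 10 genes of the mitochondrial genome passed in either comparison of CLPs with LMPPs in limma, with 1 and 0 higher at an unadjusted p under 0.05. Of 13 immediate early and heat shock genes, Fosb was higher in CLPs than in CD127+ LMPPs, and Fosb and Egr1 higher and Ier3 lower than in CD127- LMPPs. Over all genes, 2.23% were higher than in CD127+ LMPPs, and 5.08% higher and 8.36% lower than in CD127- LMPPs. Between the LMPP groups 0.881% of all genes were higher.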

How the data were processed

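Total RNA of 10 sorted samples was measured, 1 array each. The authors deposited log2 signals for 269751 probe sets (0.20433 to 14.79009); per the submitters' processing notes, Affymetrix Power Tools was used. How probe signals were background-corrected, normalized and summarised was not given in the sources used here. Probe sets with 1 gene symbol in the platform annotation (233753) were averaged per gene, giving 23152 genes. The 10 arrays were fitted together in limma 3.58.1 (R 4.3.3) with 1 mean per group, and p-values were adjusted by Benjamini-Hochberg over all genes at 0.05. A result "passed" or was "called" at that threshold, and standard errors are limma's. The number of arrays limits the precision. The fit was tested on simulated data. The members and gene lists were chosen with earlier results of these data known. Named genes are the members past the threshold, the 3 largest differences where fewer passed, paralogs with their namesakes, Rpl5, Rpl11, Rpl22, Rps6, Rps19, the 3 brightest and dimmest, and from other lists up to 3 past the threshold; the rule took at most 12 per direction, and Rpl35, Rps23, Rps14, Rpl19, Rpl10a, Rpl41 and Rps26 against CD127- LMPPs, Ncl and Myc were added after their values were seen. Alternatives changed the normalization, the probe set summary, filters and the model, and left out arrays. Same-numbered arrays did not deviate together (1 of 13 pairs had r over 0.1, highest 0.127), so replicate numbers were not used as pairs.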

Additional observations from a re-analysis of the deposited data

How the results depend on the processing

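With main counts of 10 and 22 members called for CLPs against CD127+ and CD127- LMPPs and medians of -0.280 and -0.332, counts became 6 and 10 with the median probe set per gene, 6 and 8 with the brightest, 22 and 35 with a trended robust variance, and 4 and 9 with Ly6D- CLPs alone. These counts hold both directions. Members called lower were 6 and 9, 6 and 7, 19 and 32, and 4 and 8, against 9 and 19. Of all genes, 1.86% and 4.85%, 4.53% and 5.12%, 6.31% and 10.7%, and 1.42% and 4.17% were lower in these settings, against 3.94% and 8.36%. Higher calls took 0.911% and 3.02%, 2.87% and 5.33%, 4.12% and 6.35%, and 0.635% and 2.93% of all genes, against 2.23% and 5.08%. Member counts were 0 and 9 with probe sets tested singly, an alternative chosen after seeing the data, as was leaving out paralogs (8 and 20). Counts were 20 and 30 of 62 members without genes under the low-signal limit, of which 17 and 27 were lower (12.8% and 21.5% of all genes). Among genes with 3 or more probe sets they were 7 and 12 of 41 members, 6 and 11 of them lower (5.13% and 10.3% of all such genes). A fit of the compared arrays alone gave 9 and 13, of which 8 and 11 were lower (2.53% and 6.62% of all genes). Among genes of mean 8 or more the counts were 14 and 17 of 28 members, 13 and 16 of them lower (25.8% and 35.1% of all such genes). With the replicate number as a block the counts were 6 and 14, of which 6 and 13 were lower (2.32% and 6.65% of all genes). The median against CD127- LMPPs was then -0.286. Leaving out 1 array gave 4 to 10 and 12 to 16 calls and medians of -0.284 to -0.241 and -0.38 to -0.281. Members called lower were then 4 to 10 and 10 to 14, where 1.73% to 3.47% and 4.68% to 7.88% of all genes were. Medians against CD127+ LMPPs were -0.327 after quantile normalization, -0.25 with arrays centred on their medians, -0.206 with the brightest probe set, -0.249 among genes of mean 8 or more, -0.252 with Ly6D+ CLPs alone and -0.19 over single probe sets. Against CD127- LMPPs they were -0.306 with centred arrays, -0.184 with the brightest probe set, -0.287 with 3 or more probe sets, -0.258 among genes of mean 8 or more, -0.266 without dim probe sets and -0.215 over single probe sets. Both medians stayed below 0 in all settings run. Between the LMPP groups, Rpl3l passed, as 1 call against 0, with the brightest probe set, with 3 or more probe sets, without genes under the low-signal limit, with trended robust variance and with array weights, and leaving out 1 array gave 0 to 1 calls; the median was -0.011 with the median probe set, -0.01 with the brightest and -0.011 over single probe sets, and -0.059 to -0.017 without 1 array. Between the CLP groups, Rpl29 passed as 1 call under trended robust variance (adjusted p = 0.0286 in limma), no call appeared without any 1 array, and the median was -0.017 among genes of mean 8 or more and -0.053 to 0.003 without 1 array. Among single genes, Rps15a against CD127- LMPPs turned to -0.37 with probe sets of several symbols and Rps14 to 0.23 with the brightest probe set; of the other values 727 kept direction and call, 190 lost the call, 15 gained it and 4 changed sign without a call. Causes were not tested. Signals near background limit what can be seen for Rpl10l, Rpl22l1, Rps15 and Rps16.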

Other observations

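The 8 family symbols that had only probe sets naming several genes leaned the same way as the members. Averaged over such probe sets, 7 of the 8 were lower in CLPs than in CD127+ LMPPs, with a median of -0.24 (range -0.57 to 0.02), and 8 of 8 were lower than in CD127- LMPPs, with a median of -0.28 (range -0.69 to -0.05). Rpl35a and Rps21 stood at -0.57 and -0.57 against CD127+ LMPPs and Rpl24 at 0.02. Rpl36a and Rpl36al share their probe sets and so their values.

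Symbols left out of the family for other reasons were fitted with all genes in limma. Rps19bp1, a nucleolar protein that binds Rps19, was lower in CLPs by -0.68 (adjusted p = 0.0233) and -0.76 (adjusted p = 0.00631) against CD127+ and CD127- LMPPs. Rps6ka1, a kinase of the RSK family, was lower than in CD127- LMPPs by -0.65 (adjusted p = 0.0459) and Rps6ka6 higher by 0.64 (adjusted p = 0.0221). The pseudogene symbol Rps15a-ps6 was higher by 0.80 than in CD127+ LMPPs (adjusted p = 0.0497), while the bright pseudogene probe set Rps15a-ps5 differed by -0.43 (adjusted p = 0.207).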
